A study of Mus musculus with 2 samples.

Results

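Growth factor genes that act in tissue repair were read out by single-cell RNA sequencing of inflamed mouse ear skin, namely Igf1, Pdgfa, Pdgfb, Pdgfc, Hbegf, Areg, Ereg and Tgfa. They were taken by gene symbol from a fixed list, and all 8 had a row among the 35208 gene rows. The skin came from male BALB/c mice, 7 to 12 weeks old, with IgE-mediated chronic allergic inflammation (IgE-CAI), in which 300 µg of anti-TNP IgE was given intravenously and 10 µg of TNP-OVA was injected into the ear skin the next day. Wild-type (WT) mice and Ccr2-/- mice, which carry the Ccr2tm1Mae allele and lack the chemokine receptor that lets classical monocytes leave the bone marrow, were sampled on days 3 and 5 after the challenge. The cells of each genotype and day carried 1 hashtag antibody and formed 1 pool, the number of mice in a pool was not given in the sources used here, and all 4 pools shared 1 library. Cells were freed by Liberase digestion and Percoll separation before labelling. Every pool was challenged, so uninflamed skin was not measured here.

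Growth factors of 3 families are represented. Insulin-like growth factor 1 (Igf1) signals through Igf1r, is made by fibroblasts and macrophages, and supports cell growth and matrix deposition. The platelet-derived growth factor chains Pdgfa, Pdgfb and Pdgfc signal through Pdgfra and Pdgfrb and recruit fibroblasts and pericytes. Hbegf, Areg, Ereg and Tgfa encode membrane-anchored ligands of the epidermal growth factor receptor (Egfr), which are cut free by proteases such as Adam17 and drive the growth of keratinocytes and fibroblasts. Repair macrophages are a well-known source of Igf1 and of PDGF chains in healing skin, and Areg is known from type 2 lymphoid cells and basophils.

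Of 8696 barcodes with a hashtag entry, 7118 cells were kept, with 1543 cells for WT day 3, 1037 for WT day 5, 2191 for Ccr2-/- day 3 and 2347 for Ccr2-/- day 5. The median depth per cell ran from 18632 reads in the Ccr2-/- day 5 pool to 48232 in the WT day 5 pool. Values are sequencing reads, with PCR copies counted separately, and a level is the summed reads of a gene per 1000000 summed reads of the cell type and pool (CPM). Where 4 values follow each other without names, the WT pools come first, day 3 before day 5, and the Ccr2-/- pools follow in like manner. Exact intervals cover counting error only, and with 1 pool per genotype and day no level within a day could be tested. Cell types are named "-like" because they were rebuilt from marker genes. Ccr2 in monocyte-macrophage lineage cells (Mo-Mac-like cells) was 793 and 597 CPM in the WT pools on days 3 and 5, and 63.7 and 29.1 CPM in the Ccr2-/- pools, which follows the labels (genotype log2 difference -3.94, adjusted p = 0.009, edgeR quasi-likelihood test). The pools differed greatly in composition. Mo-Mac-like cells were 27.5% and 40.9% of the WT cells on days 3 and 5 and 6.02% and 3.83% of the Ccr2-/- cells, whereas neutrophil-like cells were 3.43%, 0.579%, 18.4% and 33.7% in the same order. In a sum over all cells, fewer cells of a type and less RNA per cell cannot be told apart.

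Igf1 was read mainly in stromal cells and in macrophages. Perichondrial-like cells, named from cartilage genes and present because the ear contains a cartilage plate, held the highest Igf1 level among the named types with at least 50 cells. Their Igf1 level was 737 CPM in WT day 3 (exact Poisson 95% interval 715 to 759.8), 667 in WT day 5, 1103 in Ccr2-/- day 3 and 962 in Ccr2-/- day 5. Both Ccr2-/- pools lay above both WT pools, with a log2 difference of 0.58 (SE 0.18) that did not pass the test (adjusted p = 0.744). A read of Igf1 was found in 90.6% of the perichondrial-like cells, and in 84.6% when each cell was thinned to 10000 reads. NK cell-like cells gave 4.72% after thinning (exact 95% interval 2.66 to 7.66) and 17.9% before it. Their median depth was 22187 reads, against 60515 in perichondrial-like cells. For each growth factor, the type compared after thinning was the one with the lowest share. It was picked from these same values, among named types with at least 20 cells in every pool.

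Fibroblast-like cells contributed most Igf1 reads in 3 of the 4 pools. Their level was 491 CPM in WT day 3, 429 in WT day 5, 625 in Ccr2-/- day 3 and 823 in Ccr2-/- day 5. The WT and Ccr2-/- levels did not overlap, and the log2 difference of 0.65 (SE 0.15) did not pass the test (adjusted p = 0.144, edgeR). These cells held 54.9% and 34.6% of the Igf1 reads of the WT pools on days 3 and 5, and 81.6% and 83.1% of those of the Ccr2-/- pools. They fell into 2 clusters. Cluster 1, led by the inflammatory genes Reg1, Cxcl5 and Saa3, had 557, 472, 655 and 871 CPM of Igf1. Cluster 2, led by Scara5, had 381, 391, 482 and 510.2 CPM. Cluster 1 was the higher of the pair in every pool, and it made up 38.97% and 25.2% of the WT fibroblast-like cells and 68.2% and 72.3% of the Ccr2-/- ones. Within the clusters the genotype difference in Igf1 was 0.58 (SE 0.18, adjusted p = 0.496) and 0.32 (SE 0.11, adjusted p = 0.511) on the log2 scale, from fits added after the data were seen.

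Among Mo-Mac-like cells the Igf1 level differed both between subsets and between pools of the same subset. The whole class had 310 CPM in WT day 3 (exact Poisson 95% interval 303 to 318), 767 in WT day 5, 414 in Ccr2-/- day 3 and 418 in Ccr2-/- day 5. WT day 5 stood above the other pools, and 57.1% of all Igf1 reads of that pool came from these cells, against 25.4% in WT day 3, 5.03% in Ccr2-/- day 3 and 3.23% in Ccr2-/- day 5. Early CMDM-like cells, the early form of classical monocyte-derived macrophages with Pdcd1lg2 and Arg1 among their markers, had 240.3 CPM in WT day 3, 501 in WT day 5, 94.3 in Ccr2-/- day 3 and 114 in Ccr2-/- day 5. Late CMDM-like cells, marked by genes such as Gpnmb and Trem2, went from 550.0 CPM to 879 CPM between the WT pools of day 3 and day 5. Only 3 and 8 late CMDM-like cells were found in the Ccr2-/- pools on days 3 and 5, with 502 and 668 CPM. C1q-high macrophage-like cells, a subset with complement C1q genes, had 711, 637, 759.7 and 611 CPM. Monocyte-like cells went from 74.6 CPM in 86 cells to 733 CPM in 20 cells between days 3 and 5 in WT, and the unnamed sub-cluster 4 from 192 to 726 CPM. On WT day 5 the monocyte-like level was thus above those of early CMDM-like and C1q-high macrophage-like cells. Late CMDM-like cells went from 8.94% of the WT Mo-Mac-like cells on day 3 to 36.8% on day 5, while early CMDM-like cells went from 39.8% to 5.66%.

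The genotype difference in Igf1 did not pass the test in the Mo-Mac-like class (log2 -0.18, SE 0.30, adjusted p = 0.836), in early CMDM-like cells (-1.64, SE 0.31, adjusted p = 0.112) or in C1q-high macrophage-like cells (0.03, SE 0.26, adjusted p = 0.999). In the class as a whole the 2 days went opposite ways, with log2 differences of 0.41 on day 3 and -0.87 on day 5. The day difference was 0.64 (SE 0.31, adjusted p = 0.635). The 7 fibroblast markers summed to 880 to 936 CPM in late CMDM-like cells and 693 to 885 in early CMDM-like cells, near the 881 to 1019 CPM of NK cell-like cells. In C1q-high macrophage-like cells they summed to 5710 CPM in WT day 3 and 998 in Ccr2-/- day 5, against 52285 to 84623 in fibroblast-like cells, and their part in the Igf1 level there was not tested. Over all cells, Igf1 was 329.8 CPM in WT day 3, 499 in WT day 5, 532 in Ccr2-/- day 3 and 623 in Ccr2-/- day 5 (log2 difference 0.54, SE 0.15, adjusted p = 0.175). Without cells over 100000 reads this log2 difference was -0.36. The median fibroblast-like cell had 122859 reads, so many fibroblast-like cells were left out as well. Depth and cell type could not be told apart in this sum.

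**Figure D1:**
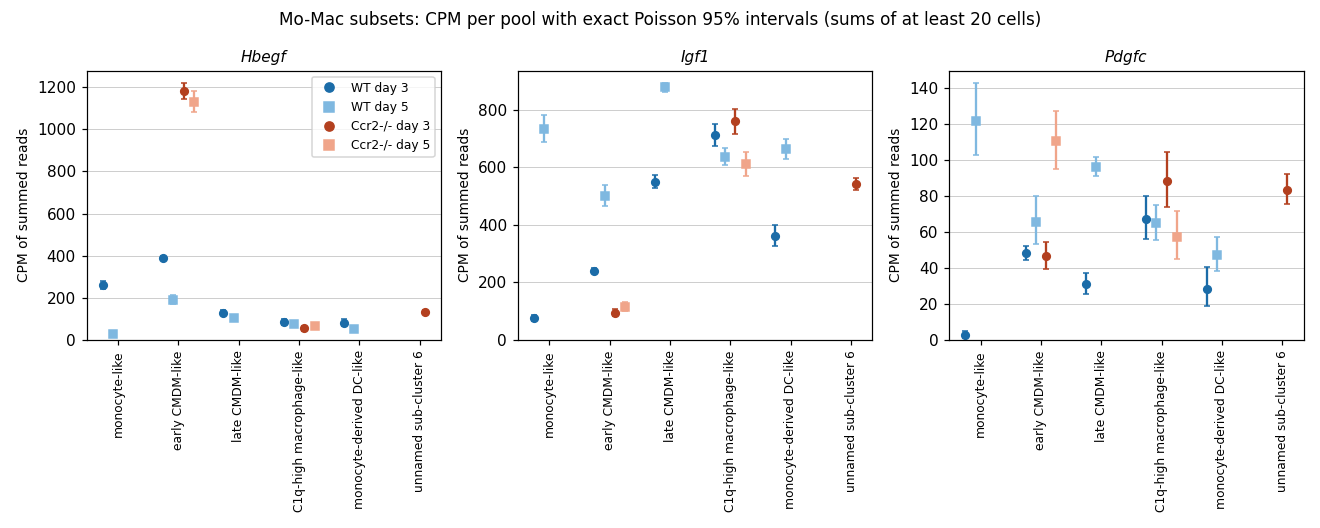
Levels of Hbegf, Igf1 and Pdgfc within Mo-Mac subsets, as CPM of summed reads on a linear axis from 0, by subset and pool, for sums of at least 20 cells, with exact Poisson 95% intervals that cover counting error only. Late CMDM-like cells are shown for WT alone, at 550.0 and 879 CPM of Igf1, and Hbegf in early CMDM-like cells was 388 and 190.0 CPM in the WT pools and 1181 and 1132 CPM in the Ccr2-/- pools.

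Pdgfc, a chain that binds Pdgfra after its CUB domain has been cut off, was read mainly in Mo-Mac-like and perichondrial-like cells. In perichondrial-like cells it was 67.9 CPM in WT day 3, 58.9 in WT day 5, 118 in Ccr2-/- day 3 and 98.2 in Ccr2-/- day 5. Both Ccr2-/- pools were higher, and the log2 difference of 0.79 (SE 0.23) did not pass the test (adjusted p = 0.744). In Mo-Mac-like cells it was 37.6 CPM in WT day 3 (exact Poisson 95% interval 35.2 to 40.1), 84.8 in WT day 5, 67.5 in Ccr2-/- day 3 and 72.1 in Ccr2-/- day 5. WT day 3 was the low pool, and neither the genotype difference (log2 0.35, SE 0.30, adjusted p = 0.630) nor the day difference (0.62, SE 0.30, adjusted p = 0.635) passed the test. Late CMDM-like cells had 30.7 and 96.2 CPM in the WT pools, and early CMDM-like cells had 48.2, 65.6, 46.2 and 110 CPM. Mo-Mac-like cells held 57.7% and 82.7% of the Pdgfc reads of the WT pools on days 3 and 5, and 31.4% and 25.0% of those of the Ccr2-/- pools. Perichondrial-like cells held 24.1%, 5.33%, 43.9% and 51.02% in the same order. Fibroblast-like cells, which led for Igf1 reads, stayed between 3.98 and 9.33 CPM for Pdgfc. Lymphatic endothelial-like cells gave 0 of 113 cells with a Pdgfc read after thinning, against 33.4% of perichondrial-like cells.

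Pdgfa, the chain that binds Pdgfra alone, was led among the named types with at least 50 cells by perichondrial-like cells. The level there was 76.01 CPM in WT day 3, 87.5 in WT day 5, 71.2 in Ccr2-/- day 3 and 59.1 in Ccr2-/- day 5, and the share of all Pdgfa reads was 20.7% ± 1.89 (SD, n = 4 pools). The genotype log2 difference was -0.30 (SE 0.27, adjusted p = 0.852). The 25 Schwann-like cells, glia of the skin nerves, had a higher level of 427 CPM over all pools, with 3 to 12 cells a pool. An unnamed group of 298 cells, cluster 13, carried both endothelial and pericyte markers (Esam and Sele beside Rgs5 and Myh11) and had 85.5, 71.2, 61.1 and 97.4 CPM. Under 4 of the 6 other ways of choosing or naming cells, a separate pericyte or smooth muscle-like class appeared and led for Pdgfa, at 82.3 to 271 CPM. T cell-like cells gave a Pdgfa read in 0 of 208 cells after thinning, and perichondrial-like cells in 28.9%.

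Pdgfb, which binds both receptors and is known from endothelial tip cells, had its highest level in the same unnamed cluster 13. Its level there was 70.7 CPM in WT day 3, 95.9 in WT day 5, 131 in Ccr2-/- day 3 and 79.4 in Ccr2-/- day 5, and the genotypes overlapped. The cluster held 48.4%, 29.8%, 56.9% and 55.7% of the Pdgfb reads of these pools. In 3 alternative cell assignments, in which a blood endothelial-like class was named, this class led with 111 to 122 CPM. NK cell-like cells had the next highest level among the named types, at 43.6, 20.1, 23.7 and 18.4 CPM. Mo-Mac-like cells had 12.5, 12.8, 13.3 and 16.01 CPM, a range within which the exact intervals of neighbouring pools overlapped (11.1 to 13.96 in WT day 3 and 13.2 to 19.2 in Ccr2-/- day 5). Mo-Mac-like cells held 33.8% and 54% of the Pdgfb reads of the WT pools and 16.4% and 15.3% of those of the Ccr2-/- pools. Their number differed as given above, and subsets within the class differed in level. Pdgfb in early CMDM-like cells was 15.96, 16.2, 4.59 and 8.65 CPM, and the genotype intervals overlapped on day 5 but not on day 3. On day 5 the C1q-high macrophage-like level went the other way, from 11.7 CPM in WT to 29.4 in Ccr2-/-, without overlap. The part of cell number and of subset levels in the read shares was not tested. In the Mo-Mac-like class the genotype difference was 0.26 (log2, SE 0.35, adjusted p = 0.791). Fibroblast-like cells had the lowest share of cells with a Pdgfb read after thinning, at 0.113%.

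**Figure D2:**
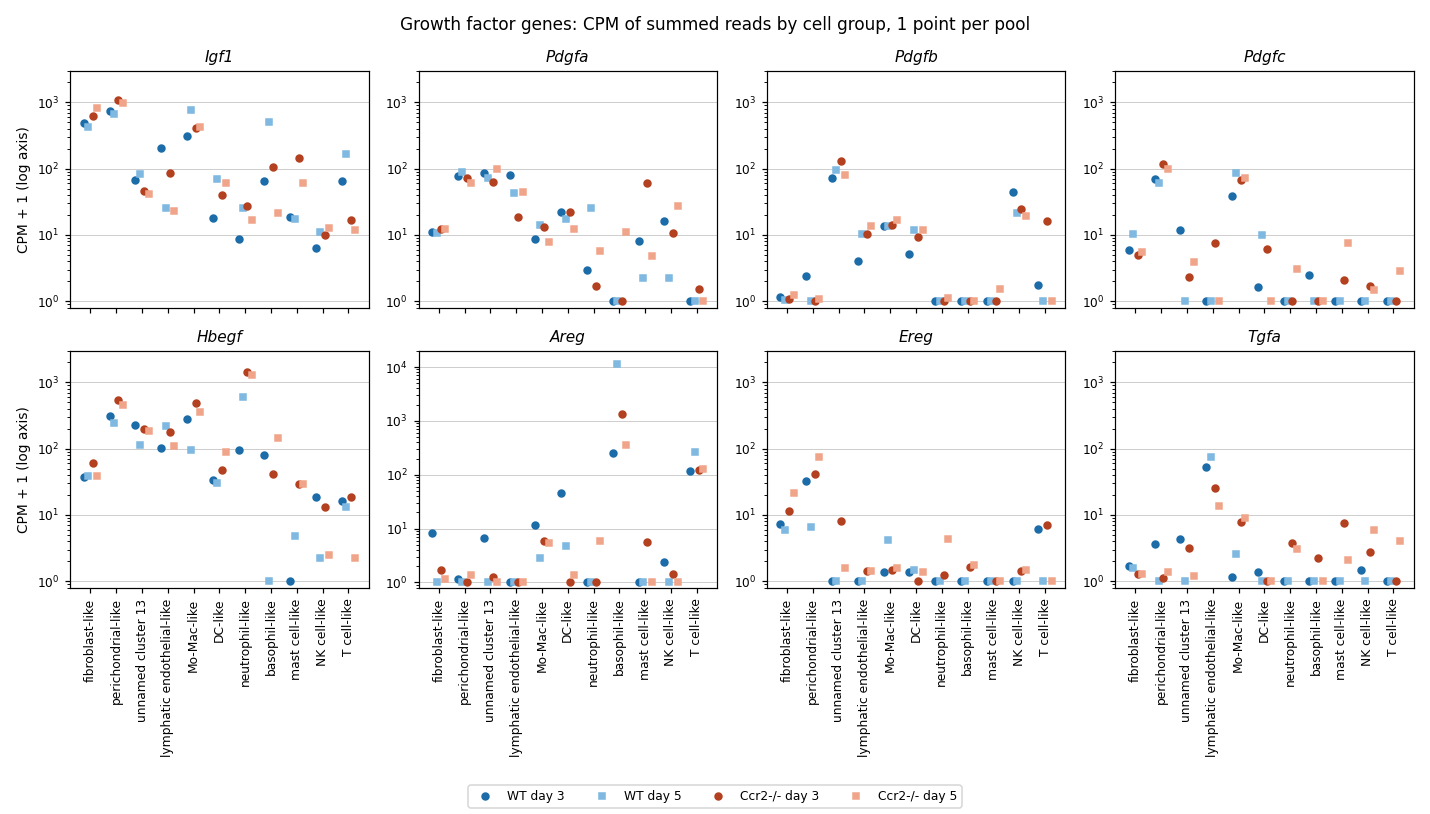
Level of each growth factor by cell group, with 1 point per pool, as CPM of summed reads plus 1 on a log axis, whose upper end is higher for Areg than for the other genes, and with no error bars. Perichondrial-like cells were high for Igf1, Pdgfa, Pdgfc and Ereg, cluster 13 for Pdgfa and Pdgfb, neutrophil-like cells of the Ccr2-/- pools for Hbegf (1422 and 1291 CPM), basophil-like cells for Areg and lymphatic endothelial-like cells for Tgfa.

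Hbegf, a heparin-binding Egfr ligand, was read in neutrophil-like cells, early CMDM-like cells and perichondrial-like cells. In neutrophil-like cells the level was 96.1 CPM in WT day 3, 599 in WT day 5, 1422 in Ccr2-/- day 3 and 1291 in Ccr2-/- day 5. The WT values rested on 49 reads each, from 3 of 53 cells and 2 of 6 cells, and 1 cell held 93.9% and 85.7% of them. The Ccr2-/- values rested on 129 of 403 cells and 224 of 792 cells, with 6.21% and 2.44% of the reads in the top cell. Neutrophil-like cells fell into 2 clusters. In the Ccr2-/- pools cluster 4 had 1588 and 1568 CPM, and cluster 11 had 671 and 536 CPM. Cluster 4 made up 322 and 554 of these Ccr2-/- cells, and 20 and 3 of the WT ones. All neutrophil-like cells together held 24.8% and 44.3% of the Hbegf reads of the Ccr2-/- pools, against 0.408% and 1.002% in the WT pools. Too few WT neutrophil-like cells were present for a test. Over all pools 28.5% of the neutrophil-like cells had a Hbegf read at a median depth of 9488 reads, and 34.1% did among those deep enough to thin to 10000 reads, against 3.46% (1.74 to 6.10) of NK cell-like cells.

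Early CMDM-like cells had a Hbegf level of 388 CPM in WT day 3 (exact Poisson 95% interval 377 to 399), 190.0 in WT day 5, 1181 in Ccr2-/- day 3 and 1132 in Ccr2-/- day 5. The genotypes did not overlap, and a read was found in 66.9% and 41.7% of the WT cells and in 92.5% and 88.9% of the Ccr2-/- cells. The log2 difference between genotypes was 2.18 (SE 0.28, adjusted p = 0.049, edgeR), at 1.61 within day 3 and 2.58 within day 5. In this fit, added after the data were seen, 0.102% of all genes tested passed. Hbegf was 1 of the 10 leading genes of this subset, although the growth factor genes were kept out of the variable genes used for clustering. The subset held 169 and 24 WT cells and 40 and 27 Ccr2-/- cells. Neutrophil markers, 8 genes in all, summed to 272.3 and 312.4 CPM in the WT pools and 139.6 and 208 CPM in the Ccr2-/- pools. Their part in the Hbegf levels was not tested. In 5 alternative cell assignments the subset no longer had 20 cells in every pool, so the difference could not be fitted there, and under the other 4 settings the adjusted p ran from 4.5e-15 to 0.032.

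Over the Mo-Mac-like class Hbegf was 276 CPM in WT day 3, 95.7 in WT day 5, 491 in Ccr2-/- day 3 and 352 in Ccr2-/- day 5. Each Ccr2-/- pool was above both WT pools, and the log2 difference of 1.40 (SE 0.27) did not pass the test (adjusted p = 0.0999). With a coarser clustering the adjusted p was 0.043. C1q-high macrophage-like cells were low, at 83.7, 74.95, 53.8 and 63.3 CPM in the order above, with a log2 difference of -0.43 (SE 0.47, adjusted p = 0.970) that turned to 0.43 when cells were assigned by marker score alone. In perichondrial-like cells Hbegf was 315, 239.8, 539 and 460.1 CPM (log2 difference 0.88, SE 0.19, adjusted p = 0.744). Over all cells the levels were 134, 71.8, 153 and 165 CPM (log2 0.73, SE 0.26, adjusted p = 0.238).

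Areg, the Egfr ligand amphiregulin, was read in few cells, and basophil-like cells had the highest level of the named types with at least 50 cells. Basophil-like cells had a level of 249.7 CPM in WT day 3, 11385 in WT day 5, 1318 in Ccr2-/- day 3 and 356 in Ccr2-/- day 5. The WT day 5 value came from 1 of 2 cells, which held all 877 reads. In the other pools the top cell held 71.2%, 44.4% and 41.5% of the reads, and over all pools 23 of 157 basophil-like cells had a read, of which 9 held 90% of the reads. These few cells gave 13.3%, 81.4%, 84.4% and 59.6% of all Areg reads of the pools. Areg was therefore read at high levels in rare cells, and the order of the pools cannot be read from these sums. NK cell-like cells gave 0 of 318 cells after thinning, which allows a share of up to 1.15% (exact 95% limit), against 16.3% of basophil-like cells. T cell-like cells had 118 CPM in WT day 3, 261 in WT day 5, 119 in Ccr2-/- day 3 and 129 in Ccr2-/- day 5, with 32 of 262 cells carrying a read. Neither the genotype difference (log2 -0.49, SE 0.47, adjusted p = 0.9997) nor the day difference (0.59, SE 0.47) passed the test, and in WT day 5 1 cell held 69.8% of the reads. WT day 3 differed from the other pools in that other types held most Areg reads. DC-like cells held 27.8% of them there (44.3 CPM, of which 1 cell gave 74.2%), Mo-Mac-like cells 20.7% (10.5 CPM) and fibroblast-like cells 19.9% (7.396 CPM, of which 1 cell gave 99.2%). In the other pools DC-like cells had 3.79, 0 and 0.358 CPM, Mo-Mac-like cells 1.90, 4.94 and 4.35 CPM, and fibroblast-like cells at most 0.718 CPM.

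The promoters of Areg and Igf1 are shown because these genes had very different patterns, rare high cells against broad expression. Each sequence runs from 250 bases before to 50 after the RefSeq start in GRCm38.p6. Capitals in Areg mark TATAAA at position -31 and TGACGTCA, the cyclic AMP response element, at -61 from the start. Capitals in Igf1 mark a match to TGANTCA, where N is any base, at -37, and ATTGG, the reverse strand of CCAAT, at -142.
Areg, chr5:91139349-91139648, plus strand: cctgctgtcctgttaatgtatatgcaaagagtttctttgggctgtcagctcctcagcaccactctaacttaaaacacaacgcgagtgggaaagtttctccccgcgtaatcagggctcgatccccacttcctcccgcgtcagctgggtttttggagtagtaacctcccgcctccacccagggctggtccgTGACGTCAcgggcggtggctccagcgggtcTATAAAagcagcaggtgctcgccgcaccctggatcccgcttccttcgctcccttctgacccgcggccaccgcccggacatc
Igf1, chr10:87860861-87861160, plus strand: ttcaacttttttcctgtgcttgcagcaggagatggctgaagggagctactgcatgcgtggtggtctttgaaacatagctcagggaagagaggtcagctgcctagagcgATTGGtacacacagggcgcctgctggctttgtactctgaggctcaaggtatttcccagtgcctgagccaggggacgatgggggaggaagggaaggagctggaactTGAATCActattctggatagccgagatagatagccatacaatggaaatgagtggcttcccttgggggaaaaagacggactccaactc
Both strands were searched for the 4 motifs. TATAAA was held by 13.6% of the 32851 RefSeq promoters of this length, TGACGTCA by 1.79%, TGANTCA by 7.81% and CCAAT by 37.4%. The Pdgfa, Pdgfc and Tgfa promoters held none of these letters, and Pdgfb, Hbegf and Ereg had no entry. A match is a description of the letters and says nothing of binding in these cells.

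Ereg, the Egfr ligand epiregulin, lay 45952 bases before Areg on chromosome 5 with 0 annotated genes between them. Their leading named types differed, perichondrial-like for Ereg and basophil-like for Areg. When cells were assigned by marker score alone, however, an ILC2-like class led for Ereg at 62.2 CPM, above the 43.4 of perichondrial-like cells, and came second for Areg at 117 CPM. Perichondrial-like cells had a level of 32.1 CPM in WT day 3, 5.55 in WT day 5, 40.1 in Ccr2-/- day 3 and 73.5 in Ccr2-/- day 5, from 7, 1, 12 and 23 cells with a read. Both Ccr2-/- pools were higher, but the exact intervals of the day 3 pools overlapped. The log2 difference of 1.85 (SE 0.87) did not pass the test (adjusted p = 0.761). The top cell held 26.8%, 100%, 50.6% and 31.5% of the perichondrial-like reads of these pools. Over all pools the perichondrial-like level was 48.6 CPM, and 15.8 CPM without cells over 100000 reads. In fibroblast-like cells these values were 12.8 and 6.97 CPM. Fibroblast-like cells had 6.37, 4.94, 10.4 and 20.3 CPM in the same order (log2 1.37, SE 0.37, adjusted p = 0.172) and held 46.5% to 75.1% of the Ereg reads. Cluster 1 of the fibroblast-like cells had 3.10, 10.04, 11.8 and 22.2 CPM. Cluster 2 had 11.8, 0.347, 3.46 and 7.97 CPM, so its genotype order was opposite on days 3 and 5. In WT day 3 1 fibroblast-like cell gave 57.6% of the reads of that type, and in Ccr2-/- day 5 the top cell gave 10.5%. After thinning, a read was left in 8.13% of perichondrial-like cells and in 0 of 113 lymphatic endothelial-like cells. Over all cells Ereg was 5.05, 3.39, 9.58 and 18.5 CPM, without overlap between genotypes (log2 1.71, SE 0.43, adjusted p = 0.157).

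Tgfa, the Egfr ligand transforming growth factor alpha, had the fewest reads. Lymphatic endothelial-like cells had 52.3 CPM in WT day 3, 74.9 in WT day 5, 24.9 in Ccr2-/- day 3 and 12.9 in Ccr2-/- day 5, from 87, 64, 56 and 31 reads. The WT pools were higher, and the log2 difference of -1.88 (SE 0.77) did not pass the test (adjusted p = 0.854). A read was found in 24 of 163 of these cells, and in 11.5% after thinning against 0.249% of DC-like cells. In Mo-Mac-like cells the order was opposite, with 0.166, 1.58, 6.75 and 8.15 CPM from 4, 40, 71 and 58 reads (log2 3.66, SE 0.91, adjusted p = 0.147), and no more than 7 cells per pool carried a read. The unnamed Mo-Mac sub-cluster 6 gave 54 of the 71 reads and 26 of the 58 reads of the Ccr2-/- pools, at 11.03 and 9.86 CPM, and in the second of these 1 cell gave 92.3%. It made up 25.0% and 17.8% of the Ccr2-/- Mo-Mac-like cells but 1.65% and 0% of the WT ones, so the sub-clusters that made up the class differed between the genotypes. In the lymphatic endothelial-like cells, the 7 fibroblast markers summed to 42040.5 CPM in WT day 3 and to 1477 to 4067 CPM in the other pools. Their part in the Tgfa levels there was not tested.

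**Figure D3:**
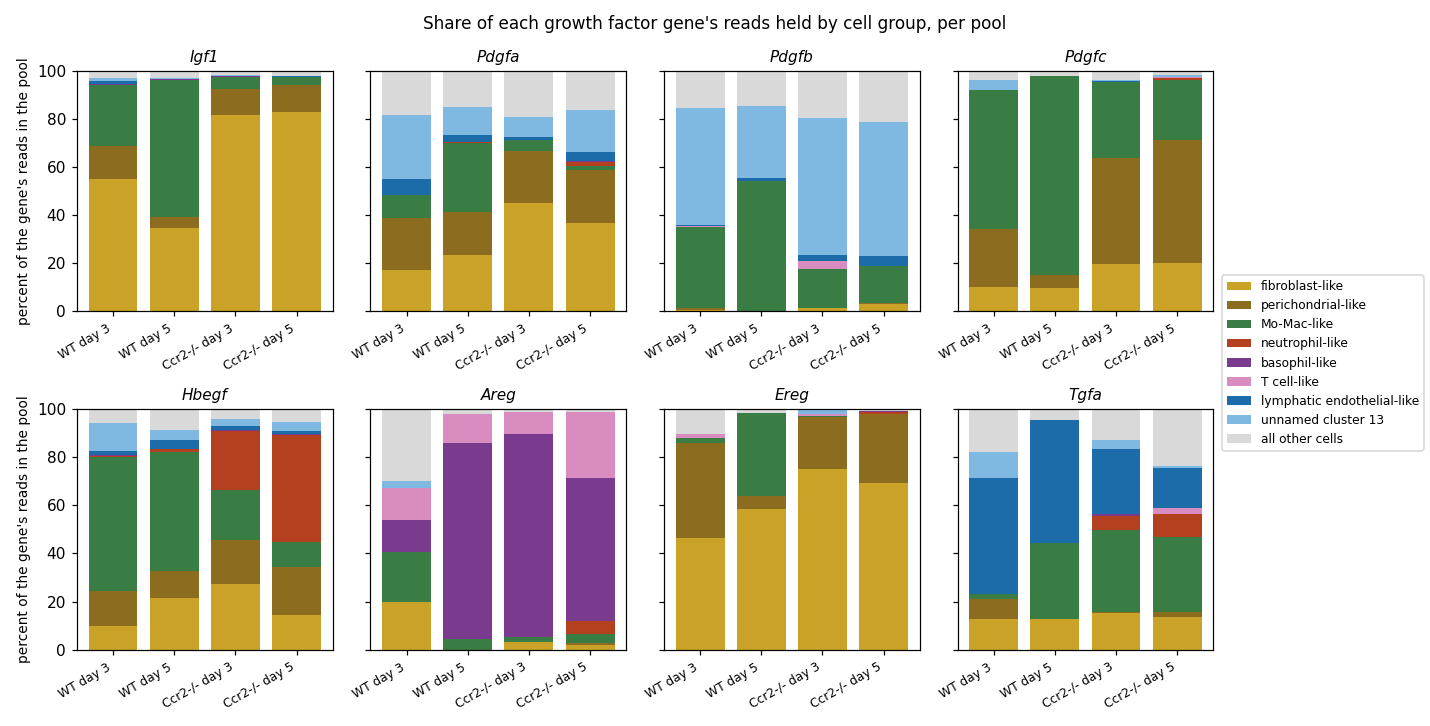
Percent of each growth factor's reads that came from each cell group, stacked to 100% in each pool. Mo-Mac-like cells held 57.1% of Igf1 and 82.7% of Pdgfc reads in WT day 5, and fibroblast-like cells held 83.1% of Igf1 and neutrophil-like cells 44.3% of Hbegf reads in Ccr2-/- day 5.

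The receptors differed in the cell types in which they were read. Egfr in fibroblast-like cells was 267 CPM in WT day 3, 179 in WT day 5, 264 in Ccr2-/- day 3 and 209.6 in Ccr2-/- day 5, and these cells held 82.7% to 92.4% of the Egfr reads. Perichondrial-like cells had 65.1 to 127 CPM and Mo-Mac-like cells 13.6 to 31 CPM. Pdgfra, itself a marker used to name fibroblasts, was 473 to 518 CPM in fibroblast-like and 159 to 365 in perichondrial-like cells. Pdgfrb, the receptor of pericytes, was 195 to 270.5 CPM in the unnamed vascular cluster 13 and 80.3 to 106 in fibroblast-like cells. Cluster 13 also had the highest Pdgfb level, but it mixed endothelial and pericyte markers. Whether the same cells held both genes was not tested. Igf1r was highest among the named types in neutrophil-like cells at 152 CPM over all pools, and lower in fibroblast-like cells at 30.3 to 40.1 CPM. The other ErbB receptors Erbb2 and Erbb3 had 130 and 303 CPM in Schwann-like cells, from 84 and 195 reads, and Erbb4 had 1 read in all.

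**Figure D4:**
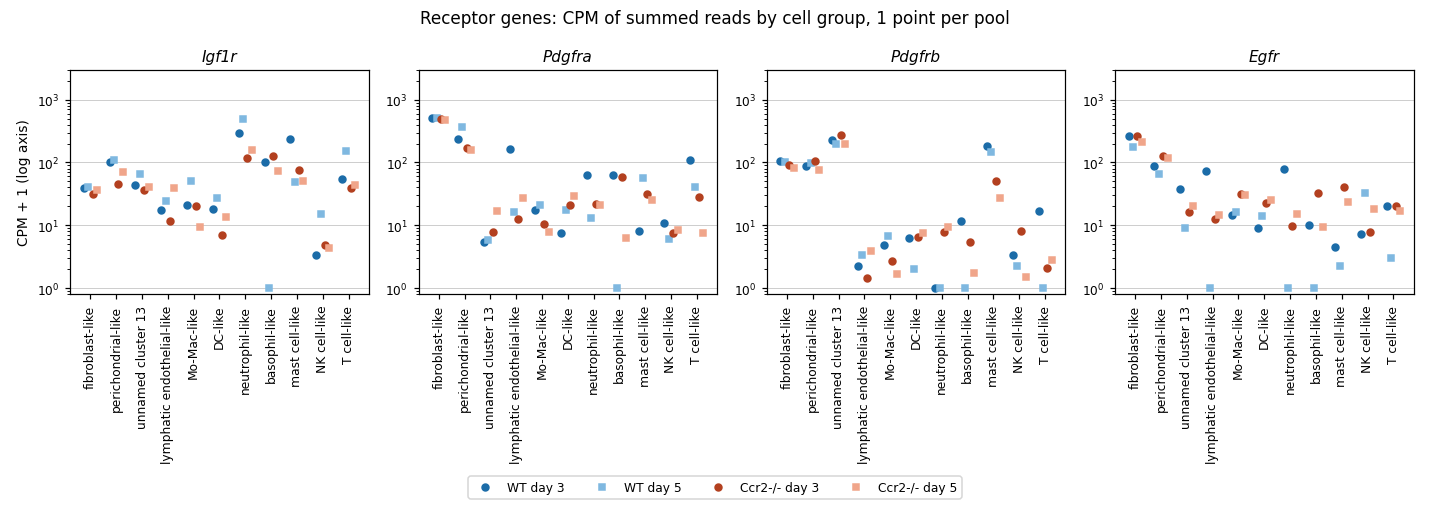
Levels of the receptors Igf1r, Pdgfra, Pdgfrb and Egfr by cell group, with 1 point per pool, as CPM of summed reads plus 1 on a log axis and with no error bars. Egfr and Pdgfra were highest in fibroblast-like cells and Pdgfrb in cluster 13, and Igf1r was 152 CPM in neutrophil-like cells over all pools.

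Across all cells and 7 cell types, 0 of 45 genotype tests of the 8 growth factors passed an adjusted p of 0.05 in edgeR, and at an unadjusted p under 0.05 there were 10 higher and 4 lower in Ccr2-/-, or 31.1% against 13% of all gene tests. These tests overlap, since the sums over all cells contain the cells of each type. DESeq2 called 10 for the growth factors, and 5.77% of all gene tests in these groups. Of these calls 5 were over all cells, where DESeq2 called 15% of the genes. Without the filter on low counts edgeR called 3, with 1.01% of all gene tests, and with the coarser clustering 1, with 0.185%. The share of all genes called for genotype was 0% over all cells and in NK cell-like, fibroblast-like, lymphatic endothelial-like and perichondrial-like cells, 0.365% in DC-like, 0.223% in Mo-Mac-like and 0.00957% in T cell-like cells. In the groups added after the data were seen it was 0.067% in C1q-high macrophage-like, 0% in fibroblast-like cluster 1 and 0.0128% in cluster 2, and 1 of 24 tests of the growth factors passed there, which was Hbegf in early CMDM-like cells. Of the 45 tests between days 0 passed, with 1 higher and 4 lower on day 5 at an unadjusted p under 0.05, or 11.1% against 4.98% of all gene tests. DESeq2 called 2, with 0.315% of all gene tests, and edgeR without the filter 2, with 0.233%. The shares of all genes called for day were 0.0073% in DC-like, 0.0383% in T cell-like, 0.00898% in lymphatic endothelial-like cells and 0% elsewhere. With 1 residual degree of freedom per gene these tests compared 4 pools, and an exact permutation test of 2 against 2 cannot give a p below 0.33.

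Of the related pathway genes, none passed the edgeR test in these groups. For genotype, 0 of 40 receptor tests and 0 of 26 tests of other ligands passed. Of the binding proteins and release enzymes 0 of 71 tests passed, and of the Egfr feedback genes 0 of 35. At an unadjusted p under 0.05 there were 11, 7, 19 and 7 in the same order. These were 27.5%, 26.9%, 26.8% and 20% of the tests, against 13% of all gene tests. DESeq2 called 2, 3, 8 and 1, to be read against its 5.77% of all gene tests. Errfi1, a feedback inhibitor of Egfr, came closest in early CMDM-like cells, the subset in which Hbegf passed the test. Its log2 difference there was 1.86 (SE 0.25, adjusted p = 0.053). Egfr over all cells had a log2 difference of 0.82 (SE 0.09, adjusted p = 0.084). Rhbdf2, which carries Adam17 to the cell surface, had a difference of -0.66 (SE 0.11, adjusted p = 0.110), and Adam17 itself -0.30 (SE 0.09, adjusted p = 0.198). In fibroblast-like cells the IGF-binding protein Igfbp3 had a log2 difference of -0.96 (SE 0.13, adjusted p = 0.110) beside the 0.65 of Igf1.

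Over 65 sums of a cell type or Mo-Mac subset in a pool, the genes with the pattern most like each growth factor were named by Pearson r of log2(CPM + 1), a description across sums that share libraries and cells. They were Gas6 (r = 0.86), Rnase4 (0.85) and Timp2 (0.83) for Igf1, and Spire1, Dse and Ctsb (each 0.76) for Pdgfc. For Pdgfa they were Btbd3 (0.76), Acvr1 (0.70) and Kif1c (0.70), and for Pdgfb Pde2a (0.61), Cd300lg (0.60) and Scarb1 (0.59). For Hbegf they were Atp6v0a1 (0.68), Eif4ebp1 (0.63) and Marcks (0.63), and for Areg Cd3e (0.73), I730030J21Rik (0.71) and D430036J16Rik (0.70). For Ereg they were Ltbp2 (0.75), Lox (0.70) and Rspo1 (0.70), and for Tgfa Gm10591 (0.66), Ccl21d (0.65) and Gm13304 (0.64). The 3 named for Tgfa were also among the 10 leading genes of the lymphatic endothelial-like cluster. Among the growth factors, Igf1 and Pdgfc were the most alike (r = 0.76) and Pdgfa and Areg the least (r = -0.45).

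By the GENCODE annotation of GRCm38, Igf1 lies on chromosome 10 at 87858265 to 87937042 and Pdgfc on chromosome 3 at 81036416 to 81214040, both on the plus strand. Pdgfa lies on chromosome 5 at 138976014 to 138997370 and Pdgfb on chromosome 15 at 79995874 to 80014977, both on the minus strand. Areg and Ereg lie on chromosome 5 at 91139599 to 91148432 and 91074622 to 91093646, Tgfa on chromosome 6 at 86195223 to 86275719, and Hbegf on chromosome 18 at 36504927 to 36515805. Hbegf and Areg overlap no other annotated gene. The other growth factors overlap genes on the opposite strand, namely Igf1os for Igf1, 6330403L08Rik for Pdgfa and Gm41361 for Pdgfb. For Pdgfc, Ereg and Tgfa these are Gm16000, Gm19610 and Gm43917. Use of the strand in counting was not given in the sources used here, so reads of such pairs could not be told apart.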

How the data were processed

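Read counts per gene and barcode were deposited by the authors as 1 cDNA table and 1 hashtag table of the pooled library, made by TAS-Seq on a BD Rhapsody system from 10000 loaded cells, with Cutadapt, Bowtie2 and Ensembl RNA of GRCm38.p6. They are unnormalized counts of reads, without collapse to molecules. From these, each cell was assigned to a hashtag when its reads exceeded those of every other tag by 3 times and reached 10. Of 8953 barcodes, 570 with several hashtags were left out as doublets, and no further doublet caller was run. Cells with fewer than 200 genes or over 20% mitochondrial reads were left out. 9 hashtag columns map to no sample and were not used.

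Cells were clustered (scanpy 1.11.5, 2000 variable genes, 30 components, Leiden resolution 1) into 21 clusters, of which 4 stayed unnamed, and named from marker lists. Reads were summed per pool and cell type with at least 20 cells in every pool and tested with edgeR 4.0.16 (quasi-likelihood, TMM, filterByExpr, day and genotype as terms, Benjamini-Hochberg over all genes), after a check on simulated data. Exact intervals are 95%. Alternatives changed the hashtag ratio, mitochondrial limit, resolution, naming, deep cells, scaling, filter and tool (DESeq2 1.42.0). The members, pathway lists and markers were chosen with earlier results of these data known. All members were described, other list genes by counts, receptors and those past or near the test by values, and the 3 genes most alike per member by Pearson r among genes reaching 50 CPM. Genes near the test were chosen after their values were seen.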

Additional observations from a re-analysis of the deposited data

Results flagged for a closer look

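Some growth factors moved opposite ways between genotypes on the 2 days, given here as log2 of Ccr2-/- over WT on day 3 and then on day 5. With 1 pool per genotype and day the difference between days was not tested. In Mo-Mac-like cells the values were -1.09 and 1.20 for Areg, 0.41 and -0.87 for Igf1, 0.65 and -0.95 for Pdgfa, and 0.85 and -0.23 for Pdgfc. Over all cells they were -0.34 and 0.20 for Pdgfa, and in lymphatic endothelial-like cells 0.79 and -0.97 for Hbegf. Among single clusters, fibroblast-like cluster 2 had -1.77 and 4.52 for Ereg. The 7 fibroblast markers summed to 42040.5 CPM in the lymphatic endothelial-like cells of WT day 3. In the other pools they summed to 1477 to 4067 CPM there, and their part in the Hbegf values was not tested. In the Mo-Mac-like class, late CMDM-like cells were 36.8% of WT cells on day 5 and 8.94% on day 3, against 8.89% and 2.27% in Ccr2-/-; their part in these values was not tested.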

How the results depend on the processing

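Among the growth factors, 0 genotype tests passed, against 3 without the filter on low counts (1.01% of all gene tests), 10 with DESeq2 (5.77%) and 1 at resolution 0.5 (0.185%). For day, 0 passed, against 2 without the filter (0.233%) and 2 with DESeq2 (0.315%). Averaging cells moved Pdgfb in NK cell-like cells from 26.4 to 53.5 CPM. The perichondrial-like share of Pdgfa reads of 20.7% became 22.9% at a hashtag ratio of 10, 18.5% at resolution 0.5 and 17.3% with the marker gate, that of Ereg went from 23.9% to 42.0% at a hashtag ratio of 10, and that of Igf1 from 10.1% to 21.2% without cells over 100000 reads. The genotype log2 difference reversed without cells over 100000 reads for Igf1 over all cells (-0.36) and Pdgfb in Mo-Mac-like cells (-0.32), with the marker gate for Igf1 (-0.15) and Hbegf (0.43) in C1q-high macrophage-like cells and Areg in T cell-like cells (0.045), within day 3 for Igf1 in Mo-Mac-like cells (0.41) and Areg in T cell-like cells (0.014), and within day 5 for Igf1 in C1q-high macrophage-like cells (-0.060) and Pdgfc in Mo-Mac-like cells (-0.23). The cause was not tested. Calls over all genes for genotype ran from 0 to 2764 over all cells, 0 to 1601 in fibroblast-like, 0 to 1140 in Mo-Mac-like and 0 to 398 in DC-like cells, and from 11 to 277 in early CMDM-like cells. No paired analysis was possible because each genotype and day is 1 pool without a replicate number. Reads without molecular identifiers and 1 pool per group limit the precision of every value.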
